A study of Homo sapiens with 12 samples.

Results

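The subject is a set of 44 genes that carry cells into, through and out of mitosis, taken as the rows of the deposited count table whose gene name is one of 44 given names. They are 44 of the 57773 genes in the table, and all 44 had enough counts to be among the 20571 genes tested. Genes of the Aurora kinase complex and the kinesin motors do not belong to the set. For the description they were placed in 8 roles that follow mitosis: transcription factors, entry, chromosome condensation, spindle, kinetochore, spindle checkpoint, anaphase and exit, and cytokinesis.

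The RNA came from MDA-MB-231, a much-used human cell line derived from triple-negative breast cancer, and was sequenced as 12 libraries in 4 groups of 3. CTL libraries 1 to 3 came from cells without treatment, TGFB libraries 4 to 6 from cells given TGFβ, ALIS libraries 7 to 9 from cells given alisertib, and Combination libraries 10 to 12 from cells given both agents; each treatment lasted 48 h. TGFβ is a cytokine that acts through SMAD transcription factors, and alisertib is a small-molecule inhibitor of Aurora A, a kinase of centrosome maturation and spindle assembly. All groups share the line and its serum-containing medium. The sources used here give neither doses nor the TGFβ isoform, and the labels name no vehicle. Nor do they say whether replicates were separate cultures, and the spread that the p-values rest on is that between libraries, which may be technical.

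Genes of mitosis are transcribed in a wave that peaks in G2 and mitosis. The DREAM and B-MYB-FOXM1 complexes control many of them through a promoter element called CHR, and many of their promoters also hold CCAAT boxes. Cyclin-dependent kinase 1 with its cyclins starts mitosis, condensins shape the chromosomes, and kinetochores tie them to the spindle. The spindle checkpoint holds back the anaphase-promoting complex (APC/C) until every chromosome is attached, after which securin and cyclin B are destroyed, sister chromatids part and the cell divides. In a mixed culture the level of such a gene follows both the share of cells in G2 and mitosis and the RNA in each of these cells, and these sources cannot be told apart here.

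Total counts were 93701658 to 120619368 per library. In each group 1 library, namely libraries 1, 6, 9 and 10, had lower levels of GC-rich genes, with a Spearman correlation of -0.79 to -0.74 between a gene's deviation from its group mean and its GC content over 11022 genes, against 0.19 to 0.81 in the other 8. In ALIS the order was graded, with library 8 (0.19) between 7 (0.69) and 9 (-0.74). In these 4 libraries 27 to 35 of the 44 mitosis genes lay above their group mean, against 7 to 20 in the others, and the median GC content was 42.8% for the 44 genes and 49.3% for all tested genes. Member calls were also made in 3 further settings, called the settings for the shared deviation: without these 4 libraries, with the shared deviation as a covariate, and with an offset for GC content in each library. The offset was fitted to each library's deviation from the mean of all 12 libraries, so it also takes out GC-linked differences between groups. Over all tested genes, Spearman's rho between GC content and the log2 fold change of TGFB against CTL was 0.251. Of the line's markers, VIM was at 230, AXL at 169, CD44 at 109 and EGFR at 28.1 RPKM (reads per kilobase of transcript, scaled to library size) in CTL and ESR1 and PGR at or under 0.00284 in every library; of the other genes listed as low, CDH1 was at 0.837 and ERBB2 at 5.87, but KRT19 was at 42.3. Markers of leukocytes, endothelium and fibroblasts were at or under 0.0352 RPKM in every library, except CD14 at up to 1.43 and LUM at up to 0.625, and PECAM1 was not matched. Of luminal markers GATA3 was at 2.02 in CTL and FOXA1 at 0.00438.

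Before any treatment the 44 genes spanned a wide range of levels per length. The authors' RPKM, averaged over the 3 CTL libraries, was highest for the DNA-untangling enzyme TOP2A (164 ± 10.8, SD, n = 3), the mitotic cyclin CCNB1 (150 ± 13.9), the cleavage-furrow protein ANLN (128 ± 7.59) and the APC/C activator CDC20 (113 ± 8.22). Securin (PTTG1, 94.3 ± 9.68), the APC/C ubiquitin-conjugating enzyme UBE2C (80.7 ± 2.23) and CCNA2 (76.1 ± 6.07) followed. The lowest levels were those of the spindle protein HMMR (5.35 ± 0.271), the second APC/C activator FZR1 (3.66 ± 1.06) and the inhibitory kinase PKMYT1 (1.84 ± 0.458). Some neighbours in this order overlapped, such as TOP2A (156 to 176 RPKM over the CTL libraries) and CCNB1 (139 to 165). Others did not, such as HMMR (5.05 to 5.58) and FZR1 (2.44 to 4.3).

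With TGFβ, genes of every mitotic phase fell together. Against CTL, 33 of the 44 genes were called lower and 2 higher, where all tested genes were called lower in 20.1% and higher in 18.5%. Levels are given as CPM, counts scaled to library size. A call here and below is an adjusted p under 0.05 in edgeR's quasi-likelihood test, with p-values adjusted by Benjamini-Hochberg across all tested genes. The median log2 fold change was -0.34 over the 44 genes and -0.006 over all tested genes. The falls were moderate, from 1.14-fold to 1.68-fold among the genes called lower, and only FZR1 changed 2-fold or more, upward. The genes called lower were 7 of 8 for entry, 4 of 6 for condensation, 5 of 6 for the spindle, 4 of 7 at the kinetochore, 4 of 5 in the checkpoint, 4 of 6 for anaphase and exit and 4 of 4 for cytokinesis. Of the 35 calls, 33 stood in all 19 alternative settings, and the exceptions were MYBL2 (called in 7) and CENPA (called in 14).

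**Figure D1:**
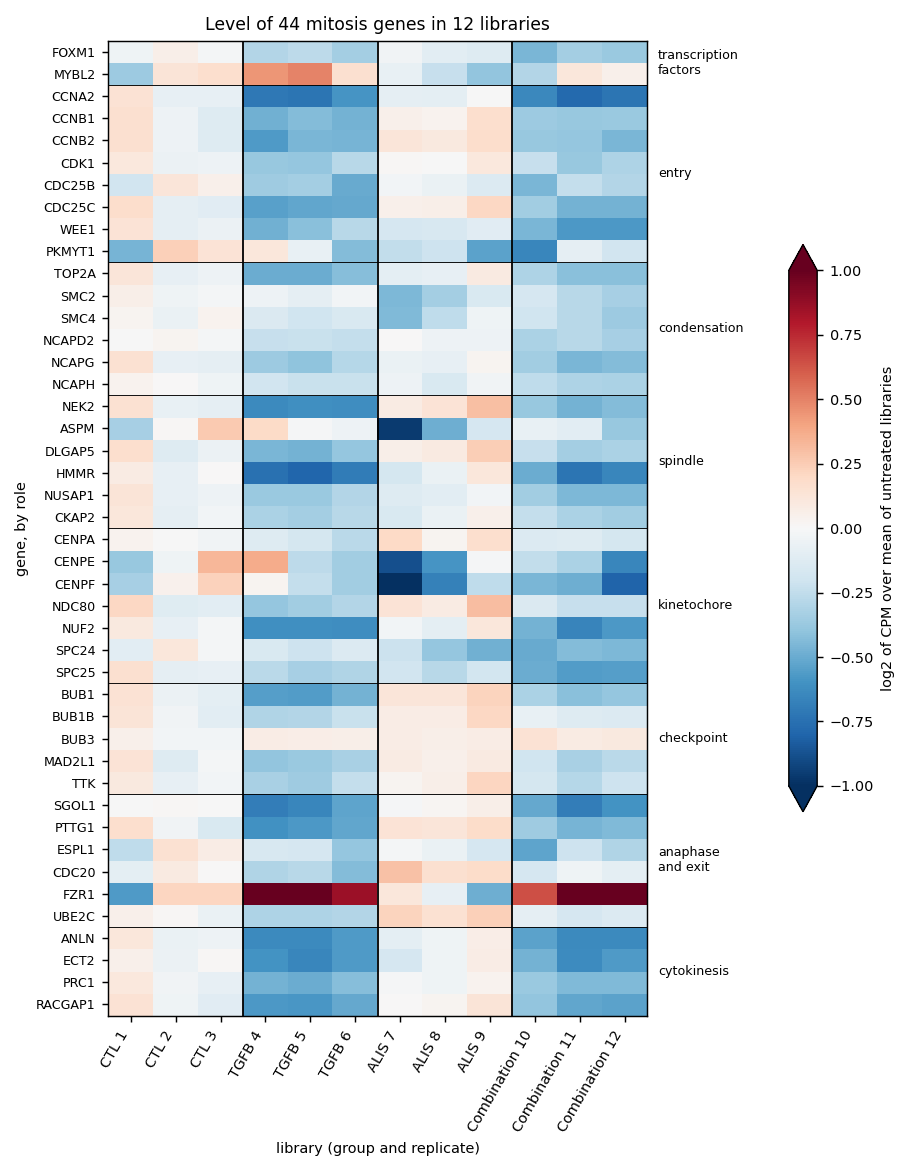
Level of each of the 44 genes (rows, by role) in each of the 12 libraries (columns, by group), as log2 of scaled CPM over the mean of the 3 CTL libraries; the colour scale ends at -1 and 1. The TGFB and Combination columns are mostly blue and the ALIS columns mixed, while FZR1 is the one row that is dark red in both groups given TGFβ.

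The promoters of these genes were searched for the elements of the mitotic programme. RefSeq start sites (GRCh38.p14) were found for 37 of the 44 genes; BUB3, FOXM1, PKMYT1, RACGAP1, TTK, UBE2C and WEE1 had no entry. In the 300 bases from 250 before to 50 after the start, searched on both strands, the CHR letters TTTGAA stood in 25 of 37 members (67.6%) and in 18.2% of 27305 genes, and the CCAAT letters CCAAT in 26 (70.3%) and in 39.7%. Both were present in 17 members (45.9%) and in 7.26% of all genes. The E2F-type letters GCGGGAA, listed for comparison, stood in 6 members (16.2%) and in 7.82% of genes. Over genes with 1 start site the CCAAT letters stood in 72.4% of 29 members and in 36.2% of 22114 genes, and the E2F-type letters in 10.3% and 6.43%. Hits of different motifs may share letters. Only the exact letters were searched, so variants of an element were not counted. Among the 28 matched members called lower with TGFβ, 19 had the CHR letters (67.9%) and 22 the CCAAT letters (78.6%); among the other 9 it was 6 (66.7%) and 4 (44.4%), a difference that was not tested.

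The stretches below run from 150 bases before to 20 after the start, 5′ to 3′ on the gene's strand, with the CHR and CCAAT letters of either strand in capitals. They were chosen after the values were seen, to show 6 promoters of members that fell and the 1 member that rose 2-fold or more.
CCNB2: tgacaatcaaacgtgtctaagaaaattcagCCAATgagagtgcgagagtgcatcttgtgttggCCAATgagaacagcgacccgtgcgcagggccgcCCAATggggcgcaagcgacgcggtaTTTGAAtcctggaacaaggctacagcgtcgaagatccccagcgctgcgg
HMMR: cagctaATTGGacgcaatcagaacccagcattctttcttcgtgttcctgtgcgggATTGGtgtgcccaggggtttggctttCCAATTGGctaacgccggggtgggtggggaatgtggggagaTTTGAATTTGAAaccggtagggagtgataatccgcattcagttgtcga
CDC20: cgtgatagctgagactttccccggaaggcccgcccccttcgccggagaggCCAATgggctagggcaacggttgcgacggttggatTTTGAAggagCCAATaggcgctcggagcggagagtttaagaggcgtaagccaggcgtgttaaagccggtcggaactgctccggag
PRC1: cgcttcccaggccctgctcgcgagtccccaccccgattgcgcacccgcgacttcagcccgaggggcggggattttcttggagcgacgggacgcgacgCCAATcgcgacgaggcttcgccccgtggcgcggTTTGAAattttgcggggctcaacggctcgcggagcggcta
ANLN: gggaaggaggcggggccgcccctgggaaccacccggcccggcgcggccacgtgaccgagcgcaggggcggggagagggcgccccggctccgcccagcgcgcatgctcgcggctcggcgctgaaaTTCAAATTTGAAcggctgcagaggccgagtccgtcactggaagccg
BUB1: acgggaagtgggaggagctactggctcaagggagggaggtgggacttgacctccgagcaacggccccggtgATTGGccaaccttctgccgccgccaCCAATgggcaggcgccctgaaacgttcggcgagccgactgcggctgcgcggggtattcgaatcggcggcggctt
FZR1: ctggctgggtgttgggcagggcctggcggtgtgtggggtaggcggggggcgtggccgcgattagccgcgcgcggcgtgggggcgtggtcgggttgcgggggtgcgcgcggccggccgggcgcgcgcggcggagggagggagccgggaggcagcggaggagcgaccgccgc
In CCNB2 (chr15:59104996-59105165, plus strand) the CHR letters start 29 bases before the transcription start and follow 3 CCAAT boxes in the stretch shown. HMMR (chr5:163460482-163460651, plus) has the CHR letters in tandem at -28 and -22, CDC20 (chr1:43358831-43359000, plus) has them at -65 between CCAAT boxes at -100 and -55, and PRC1 (chr15:90994516-90994685, minus) has them at -20 behind 1 CCAAT box at -53. ANLN (chr7:36389712-36389881, plus) holds CHR letters on both strands, at -26 and -20, and no CCAAT box, whereas BUB1 (chr2:110678044-110678213, minus) has CCAAT boxes at -79 and -54 and no TTTGAA. The stretch of BUB1 holds the letters ttcgaa, a variant that was not searched for. The stretch of FZR1 (the first of 2 start sites, chr19:3506161-3506330, plus) holds none of these letters, with 1 CHR hit outside it at -226. The letters of HMMR's CCAAT boxes partly overlap each other. These are matches of letters, not measured binding sites.

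Among the transcription factors, FOXM1, which drives genes of G2 and mitosis, was at 161, 173 and 164 CPM in CTL and at 136, 138 and 131 in TGFB. The groups did not overlap, and the log2 fold change was -0.30 ± 0.047 (SE, n = 3 per group; edgeR adjusted p = 0.000145). MYBL2, the B-MYB subunit of the same programme, had 37.5, 52.8 and 54.2 CPM in CTL and 65.4, 68.0 and 53.9 in TGFB. Its groups overlapped by a small margin and it was called higher, by 0.38 ± 0.141 (edgeR adjusted p = 0.0493). Of the 35 calls it stood in the fewest alternatives, while in the 3 settings for the shared deviation the value was 0.18 to 0.39, called in each.

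Genes of entry fell with TGFβ except PKMYT1. CCNA2, the cyclin of S and G2 phase, was at 254, 217 and 217 CPM in CTL and 140, 138 and 152 in TGFB. The gap between the groups was wide against their spread, and the log2 fold change was -0.68 ± 0.065 (edgeR adjusted p = 1.04e-06). CCNB1, partner of CDK1 in mitosis, went from 413 ± 43.7 (SD, n = 3) to 299.5 ± 4.61 CPM, a log2 fold change of -0.46 ± 0.063. Its relative CCNB2 had -0.50 ± 0.066, and CDK1 itself, the kinase that starts mitosis, had -0.35 ± 0.058. The phosphatases that activate CDK1 fell as well, CDC25C by 0.53 and CDC25B by 0.40 on the log2 scale, and so did WEE1, a kinase that restrains CDK1, by 0.39. PKMYT1, the other restraining kinase, was at 7.24, 11.7 and 10.9 CPM in CTL and 10.8, 9.45 and 7.39 in TGFB. These overlap and were not called (-0.12 ± 0.188, edgeR adjusted p = 0.67), except with the GC offset, where PKMYT1 was called lower at -0.47.

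Of the condensation genes, 4 of 6 fell, with a median log2 fold change of -0.22. TOP2A, which untangles DNA, was at 1238, 1077 and 1096 CPM in CTL and 805, 805 and 849 in TGFB. Every TGFB library lay below every CTL library, with a log2 fold change of -0.47 ± 0.064 (edgeR adjusted p = 3.47e-05). The non-SMC condensin I subunits were called lower too, NCAPG at -0.35, NCAPD2 at -0.23 and NCAPH at -0.21. The core ATPases of condensin were not called: SMC2 had -0.056 ± 0.067 and SMC4 -0.17 ± 0.079. SMC4 was called lower without libraries 1, 6, 9 and 10 (-0.16, edgeR adjusted p = 0.0449) and in neither of the other settings for the shared deviation.

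Spindle genes held the deepest fall of the 44. HMMR, a protein of spindle poles and microtubules, was at 23.98, 21.4 and 22.7 CPM in CTL and 13.5, 13.1 and 14.0 in TGFB, a log2 fold change of -0.74 ± 0.085 (edgeR adjusted p = 6.31e-06). NEK2, a kinase of centrosome separation, went from 82.97, 70.9 and 69.9 to 47.9, 48.7 and 48.6 CPM (-0.62 ± 0.07). In both genes the lowest CTL library was well above the highest TGFB library. DLGAP5, a spindle assembly factor, had -0.44, NUSAP1, which bundles spindle microtubules, had -0.34, and CKAP2, a microtubule-associated protein, had -0.31, all called. ASPM, which focuses spindle poles, had 160, 202 and 241 CPM in CTL and 229, 199 and 194 in TGFB, with overlapping groups and no call (0.045 ± 0.169).

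At the kinetochore the NDC80 complex, which holds microtubules, did not move as 1 unit. Its subunit NUF2 went from 83.7, 73.6 and 76.9 to 51.1, 51.2 and 50.9 CPM (-0.61 ± 0.066, edgeR adjusted p = 3.46e-06). NDC80 itself had -0.34 ± 0.082 and SPC25 -0.30 ± 0.067, both called lower. The fourth subunit, SPC24, was at 26.5, 30.9 and 28.1 CPM in CTL and 25.6, 24.7 and 25.9 in TGFB, which do not overlap but were not called (-0.16 ± 0.074, edgeR adjusted p = 0.0996). In all 3 settings for the shared deviation SPC24 was called lower, at -0.32 to -0.16. SPC24 is uncertain in every comparison, since its span overlaps another gene and the kit does not mark strand. Reads from a shared stretch cannot be told apart, and how far the exons overlap was not measured. CENPA, the centromeric histone, had -0.19 ± 0.061 (edgeR adjusted p = 0.0229) and lost its call without CTL library 1 or TGFB libraries 5 or 6, without libraries 1, 6, 9 and 10 (-0.13, edgeR adjusted p = 0.0662) and with the GC offset (-0.13, edgeR adjusted p = 0.0533). CENPE and CENPF, large proteins of the outer kinetochore, were not called, with -0.045 ± 0.231 and -0.18 ± 0.177.

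Of the spindle checkpoint, 4 of 5 genes fell. BUB1, the kinase that recruits checkpoint proteins to kinetochores, was at 349, 304 and 295 CPM in CTL and 216, 215 and 228 in TGFB. The groups lay far apart (-0.53 ± 0.061, edgeR adjusted p = 7.08e-06). The APC/C inhibitors MAD2L1 and BUB1B had -0.36 and -0.27, and the checkpoint kinase TTK had -0.31. BUB3, their binding partner, was at 266, 252 and 252 CPM in CTL and 269.5, 268 and 267 in TGFB, above all CTL values. Its log2 fold change was 0.064 ± 0.039 with no call, and in the 3 settings for the shared deviation it was called higher, by 0.065 to 0.18.

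The genes of anaphase and exit included both directions. SGOL1, shugoshin, which protects centromeric cohesion, had 34.1, 34.4 and 34.1 CPM in CTL and 21.2, 21.8 and 23.8 in TGFB (-0.62 ± 0.062, edgeR adjusted p = 1.51e-06). PTTG1, securin, went from 230, 199 and 184 to 134, 137 and 143 CPM (-0.57 ± 0.068). In neither gene did the groups come near each other. ESPL1, the separase that securin restrains, had -0.24 ± 0.103 and no call, and was called lower in each of the 3 settings for the shared deviation. The APC/C partners CDC20 and UBE2C fell less, by 0.34 and 0.31.

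FZR1, the APC/C activator of late mitosis and G1, went the other way. Its CPM was 15.4, 26.5 and 26.6 in CTL and 55.5, 57.6 and 41.4 in TGFB, a log2 fold change of 1.17 ± 0.219 (edgeR adjusted p = 0.000627). The lowest values of both groups were those of libraries 1 and 6, and the rise was 0.91 to 1.21 in the 3 settings for the shared deviation, called in each. The span of FZR1 (hg19 chromosome 19, 3506271 to 3538328) overlaps MFSD12, a gene of lysosome-related organelles counted at 1.75 times the CPM of FZR1. MFSD12 rose by 0.998 ± 0.129 in the same comparison (edgeR adjusted p = 2.3e-05). Without strand, reads from a stretch that the pair shares cannot be told apart. Only spans were compared, and how far the exons overlap was not measured, so the value of FZR1 is uncertain. Overlaps with a gene of similar or higher counts were also found for CDC25C (FAM53C, -0.040 with TGFβ), CENPA (SLC35F6, 0.10) and PKMYT1 (PAQR4, 0.14), and none of these neighbours was called with TGFβ. PAQR4 was at -0.38 in ALIS against CTL, -0.26 in Combination against CTL and -0.40 in Combination against TGFB, without a call. The values of PKMYT1 in these comparisons are therefore uncertain.

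Cytokinesis was the role in which every gene fell, with a median log2 fold change of -0.58. ANLN, which links actin and the cleavage furrow, was at 900, 794 and 803 CPM in CTL and 535, 534.5 and 563 in TGFB (-0.61 ± 0.059, edgeR adjusted p = 1.01e-06). ECT2, which activates RhoA at the cell equator, went from 242, 225 and 235 to 154, 149 and 157 CPM (-0.61 ± 0.061). In both, the highest TGFB library was far below the lowest CTL library. RACGAP1, the partner of ECT2 in the spindle midzone, had -0.56, and PRC1, which crosslinks midzone microtubules, had -0.47.

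**Figure D2:**
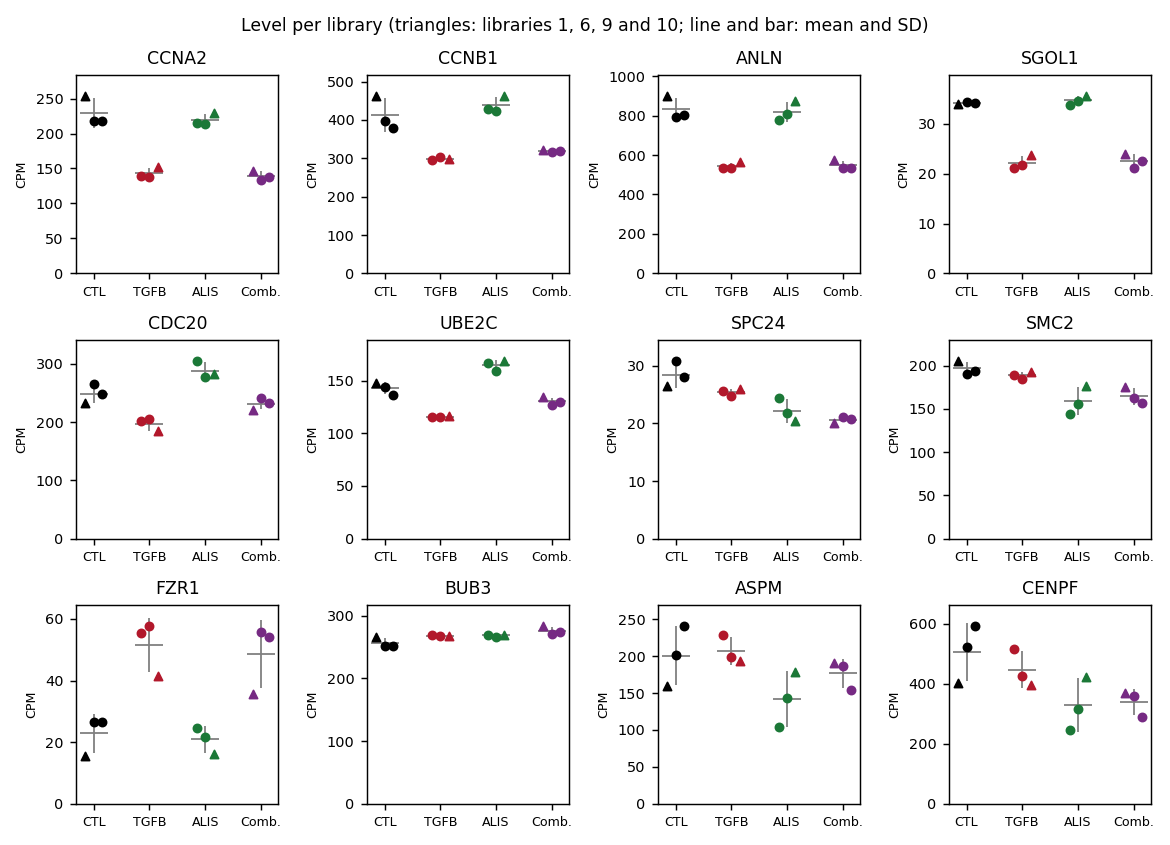
CPM of 12 of the 44 genes in each library (points; triangles are libraries 1, 6, 9 and 10), by group, with the group mean and SD as grey line and bar and axes that start at 0. CCNA2, CCNB1, ANLN and SGOL1 sit lower in both groups given TGFβ, CDC20 and UBE2C are lower with TGFβ and higher with alisertib, and ASPM and CENPF overlap between CTL and TGFB.

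The same TGFβ effect was seen in cells that also had alisertib. Combination against ALIS, which shares no library with TGFB against CTL, had 33 genes called lower and 1 higher, where all tested genes were called lower in 19% and higher in 19.4%. All 33 were also called lower in TGFB against CTL, and the median log2 fold change was -0.33. The sizes were close: CCNA2 had -0.65 ± 0.065, against -0.68 without alisertib, SGOL1 -0.62 in both, BUB1 -0.53 in both and ANLN -0.58, against -0.61. FZR1 rose by 1.22 ± 0.22. Across the 44 genes, which are not independent replicates, Spearman's rho between the 2 sets of fold changes was 0.96. Neither this rho nor the share of genes called lower in both comparisons was computed over all tested genes. The agreement is therefore not shown to be particular to the 44. MYBL2 was not called here (0.20 ± 0.141), but was called higher without libraries 1, 6, 9 and 10 (0.23) and with the covariate (0.19), and had -0.029 with the GC offset. ESPL1, at -0.26 ± 0.103 without a call, was called lower in all 3 settings. With the GC offset alone SPC24 and PKMYT1 were called lower (-0.26 and -0.40) and SMC2 and BUB3 higher (0.13 and 0.16). CDC25B (-0.25 ± 0.079) lost its call without ALIS libraries 7 or 8 or Combination library 10.

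**Figure D3:**
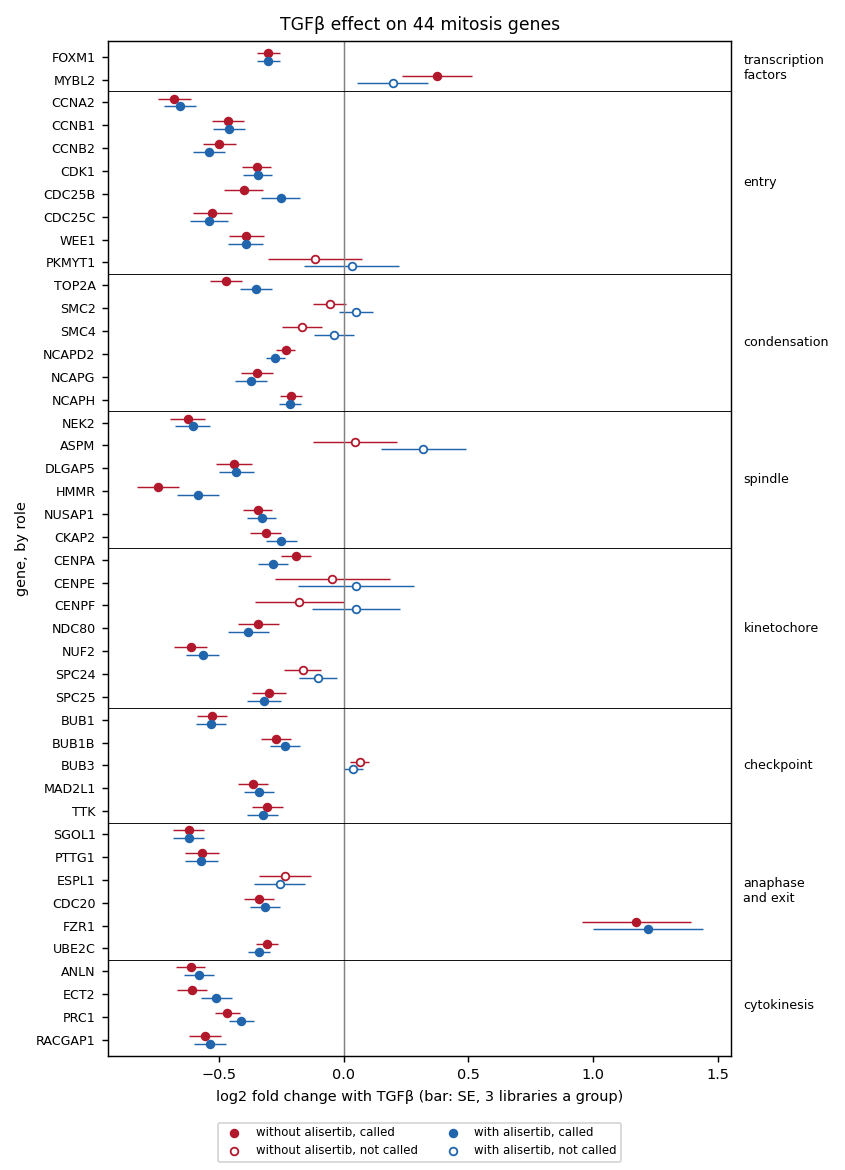
log2 fold change with TGFβ for the 44 genes (rows, by role), without alisertib (red, TGFB minus CTL) and with it (blue, Combination minus ALIS); bars are SE, filled points were called. Both series lie left of 0 for 33 called genes, and FZR1 is the called gene to the right in both.

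The difference between the 2 TGFβ effects, which is also the difference between the 2 alisertib effects, was tested as an interaction. None of the 44 genes was called, lower or higher, by edgeR, and DESeq2 called none either. Among all tested genes edgeR called 0.165% lower and 0.117% higher. None of the 44 had an unadjusted edgeR p under 0.05, against 1170 of all 20571 tested genes. The interaction ran from -0.18 for MYBL2 to 0.27 for ASPM, with SE of 0.054 to 0.328 and a median SE of 0.092, and was within 0.25 of 0 on the log2 scale for 43 genes. In single settings CDC25B was called higher (0.21, without libraries 1, 6, 9 and 10) and MYBL2 lower (-0.20, with the covariate).

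With alisertib alone few of the 44 genes were called in the fit of all 12 libraries, and the called changes were small. More were called in the 3 settings for the shared deviation, given below. The values farthest from 0 were not called: CENPF at -0.62, ASPM at -0.50 and CENPE at -0.45. ALIS against CTL had 2 genes called lower and 1 higher, where all tested genes were called lower in 3.19% and higher in 3.55%, so the share of these genes was near the background. The median log2 fold change was -0.032. UBE2C, the ubiquitin-conjugating enzyme of the APC/C, was at 148, 144 and 137 CPM in CTL and 167, 159 and 169 in ALIS. The groups did not overlap and UBE2C was called higher (0.21 ± 0.044, edgeR adjusted p = 0.0123). CDC20, which the checkpoint holds inactive, was at 233, 265 and 249 CPM in CTL and 305, 278 and 283 in ALIS; these do not overlap, but the value of 0.21 ± 0.06 missed the threshold (edgeR adjusted p = 0.0502).

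The genes called lower were a condensin and a kinetochore subunit. SMC2 was at 205, 191 and 194 CPM in CTL and 144, 156 and 177 in ALIS, with no overlap (-0.31 ± 0.067, edgeR adjusted p = 0.0134). SPC24 was at 26.5, 30.9 and 28.1 CPM in CTL and 24.5, 21.8 and 20.4 in ALIS (-0.36 ± 0.074, edgeR adjusted p = 0.0107). Its CTL values lay above all ALIS values. These 3 calls were each lost when only CTL and ALIS were fitted, and SMC2 and SPC24 also without ALIS library 8, SMC2 without ALIS library 7, and SPC24 without CTL library 2 or ALIS library 9. The 5 checkpoint genes all had values above 0, from 0.067 for BUB3 to 0.16 for BUB1, and the 6 condensation genes values below 0, from -0.029 for TOP2A down to SMC2, without further calls. FOXM1 and MYBL2 were below 0 as well, and signs in the remaining roles were mixed. Of all tested genes 52.3% had values below 0, and 26 of the 44. These signs by role were not tested.

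**Figure D4:**
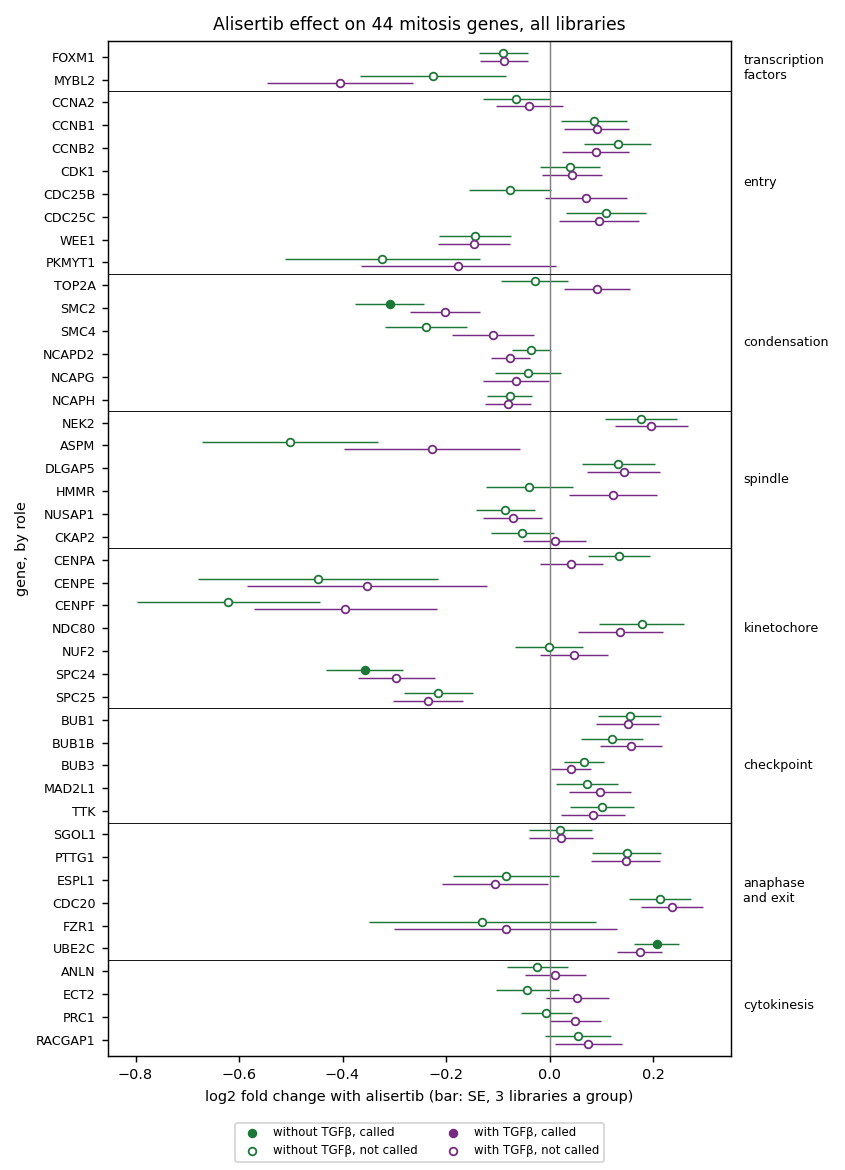
log2 fold change with alisertib for the 44 genes (rows, by role), without TGFβ (green, ALIS minus CTL) and with it (purple, Combination minus TGFB), from all 12 libraries; bars are SE, filled points were called. Only SMC2, SPC24 and UBE2C are filled, and the widest bars belong to CENPE, FZR1, PKMYT1, CENPF and ASPM.

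In cells that also had TGFβ, Combination against TGFB had no called gene among the 44, where all tested genes were called lower in 0.89% and higher in 1.19%. By edgeR 11 of the 44 had an unadjusted p under 0.05, against 2639 of all 20571 tested genes. The smallest edgeR adjusted p was 0.0604 for SPC24. DESeq2 called 1 lower and 2 higher, against 1.49% and 1.94% of all genes. CDC20 was at 202, 205 and 184 CPM in TGFB and 221, 241.5 and 233 in Combination (0.24 ± 0.06, edgeR adjusted p = 0.0655). UBE2C was at 115, 115 and 116 CPM in TGFB and 134, 127 and 130 in Combination (0.17 ± 0.044, edgeR adjusted p = 0.0636). In both genes all 3 Combination libraries were above all 3 TGFB libraries.

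The number of calls with alisertib rose in the 3 settings for the deviation shared by libraries 1, 6, 9 and 10. For ALIS against CTL, 14 genes were called higher and 9 lower without those 4 libraries, where all tested genes were called higher in 11% and lower in 13.5%. With the covariate it was 14 and 8 (11.3% and 13.8% of all genes), and with the GC offset 7 and 9 (7.35% and 9.43%). For Combination against TGFB the counts were 8 higher and 4 lower (3.3% and 3.63%), 10 and 8 (6.98% and 7.86%), and 7 and 6 (3.54% and 3.79%). The covariate was estimated from the same counts, which makes its p-values too small. The GC offset was also fitted to these counts, and the 4 libraries were picked by their deviation in them. The p-values of these settings may therefore be too small as well. Leaving out CTL library 1 alone gave 10 higher and 3 lower in ALIS against CTL (6.54% and 5.8% of all genes). Leaving out ALIS library 8 gave none lower (1.43%), and leaving out ALIS library 9 gave 4 lower (1.77%).

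The genes called higher in both comparisons in all 3 settings were NEK2, DLGAP5, BUB1, PTTG1, CDC20 and UBE2C, and those called lower were MYBL2, SMC2 and SPC24. The share of all tested genes that met the same rule was not computed, so these counts have no background beside them. PTTG1 was at 199 and 184 CPM in CTL libraries 2 and 3 and at 224.5 and 223 in ALIS libraries 7 and 8, a log2 fold change of 0.23 without the 4 libraries (edgeR adjusted p = 8.51e-05), and at 134 and 137 CPM in TGFB libraries 4 and 5 and 148 and 151 in Combination libraries 11 and 12 (0.14, edgeR adjusted p = 0.0269). BUB1 had 0.20 and 0.15 in the same libraries, NEK2 0.20 and 0.17, DLGAP5 0.17 and 0.13, CDC20 0.19 and 0.22, and UBE2C 0.22 and 0.16. With all 12 libraries these 6 genes had 0.13 to 0.21 for ALIS against CTL and 0.14 to 0.24 for Combination against TGFB. MYBL2 had -0.30 and -0.39, SMC2 -0.36 and -0.24, and SPC24 -0.34 and -0.26 in the 8 libraries. NDC80 was called higher in all 3 settings for ALIS against CTL (0.17 to 0.23), and BUB1B higher (0.14 to 0.16) and SPC25 lower (-0.26 to -0.24) in all 3 for Combination against TGFB.

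**Figure D5:**
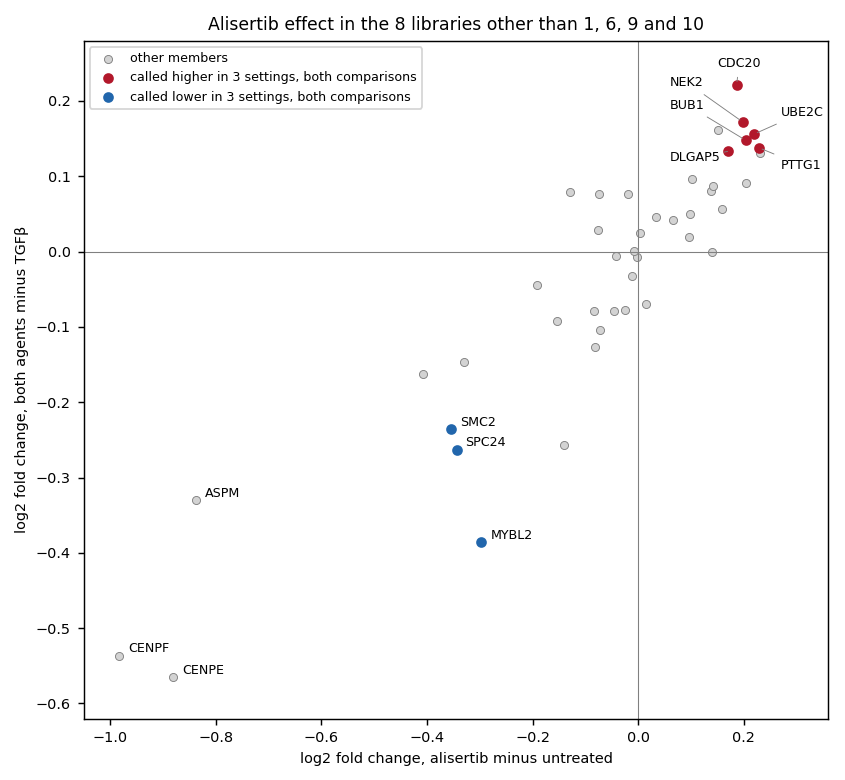
log2 fold change with alisertib for the 44 genes in the 8 libraries other than 1, 6, 9 and 10, without TGFβ (horizontal axis) and with TGFβ (vertical axis); coloured points were called in both comparisons in all 3 settings. The 6 red genes lie at 0.17 to 0.23 on the horizontal axis, the 3 blue genes at -0.36 to -0.30, and ASPM, CENPE and CENPF, uncoloured, farthest to the left.

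Combination against CTL sets cells with both agents against cells with neither, and shares its CTL libraries with 2 of the comparisons above. It had 34 genes called lower and 2 higher, where all tested genes were called lower in 20.3% and higher in 19.4%, and a median log2 fold change of -0.37. CCNA2 again had 147, 134 and 138 CPM against 254, 217 and 217 (-0.72 ± 0.065, edgeR adjusted p = 5.8e-07). All 6 condensation genes were called lower, SMC2 at -0.26 and SMC4 at -0.28 included. SPC24 was lower by -0.46 ± 0.075, with 20.1, 21.1 and 20.8 CPM. CDC20 was at 221, 241.5 and 233 CPM and overlapped CTL, with no call from all 12 libraries (-0.10 ± 0.06, edgeR adjusted p = 0.208), but it was called lower in each of the 3 settings for the shared deviation, at -0.17 to -0.10. PKMYT1, at -0.29 without a call, was also called lower in all 3, NDC80 (-0.20) in 2, and BUB1B (-0.11) and CENPA (-0.15) with the covariate alone. PAQR4, which overlaps PKMYT1, was at -0.26 in this comparison, without a call. MYBL2 (-0.030) was called lower with the GC offset alone (-0.19). CENPF was called lower (-0.57 ± 0.177) and lost the call with the covariate (edgeR adjusted p = 0.0824) and the GC offset (edgeR adjusted p = 0.125). UBE2C had -0.13 ± 0.044, a call that stood in 12 of 19 alternatives, and BUB3 had 0.11 ± 0.039, called higher in 5 of 19. FZR1 rose by 1.09 ± 0.219.

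The least precisely measured members were long or GC-rich. CENPF, ASPM and CENPE have the longest transcripts of the 44, at 11663, 10887 and 9444 bases in the table. Within CTL their highest library was 1.47, 1.5 and 1.64 times the lowest, and within ALIS 1.72, 1.73 and 1.82 times. CENPF was at 401, 521 and 592 CPM in CTL and 246, 315 and 424 in ALIS, which overlap, with -0.62 ± 0.177 (edgeR adjusted p = 0.0523); it was called lower without CTL library 1, without ALIS library 9 and without libraries 1, 6, 9 and 10 (-0.98), but not with the covariate (-0.61, edgeR adjusted p = 0.112) or the GC offset (-0.66, edgeR adjusted p = 0.103). ASPM had 103.5, 143 and 179 CPM in ALIS and -0.50 ± 0.17, called without ALIS library 9. In both genes ALIS library 7 was lowest and library 9 highest. The other wide errors belong to the GC-rich genes PKMYT1 (66% GC), FZR1 (62.7%) and MYBL2 (60.2%).

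Other genes of mitosis were described beside the 44. Of 79 further genes, in 4 lists, 34 were called lower (43%) and 1 higher (1.27%) with TGFβ, with a median of -0.16. All tested genes were called lower in 20.1% and higher in 18.5%. By list the genes called lower were 14 of 30 at the centromere and kinetochore, 10 of 15 among kinases and phosphatases of entry and exit, 6 of 20 APC/C subunits and regulators and 4 of 14 of cohesin and condensin II. Among those at 5 CPM or more, PBK, a mitotic kinase, fell most with TGFβ (-0.76 ± 0.065), followed by the phosphatase CDC25A (-0.57), and CENPT, a kinetochore anchor, rose (0.51 ± 0.128). With alisertib 9 were called lower (11.4%) and 1 higher (1.27%), against 3.19% and 3.55% of all tested genes. Among those lower were the kinetochore protein KNTC1 (-0.46 ± 0.053) and the cohesin subunit SMC3 (-0.39), and the small APC/C subunit ANAPC13 was higher (0.27). For Combination against TGFB 5 were lower (6.33%) and 1 higher (1.27%), against 0.89% and 1.19% of all tested genes. ZWINT, which links KNTC1's complex to the kinetochore, was at -0.34, KNTC1 at -0.33 and ANAPC13 at 0.32. In Combination against CTL it was 44 (55.7%) and 2 (2.53%), against 20.3% and 19.4% of all tested genes. KNTC1 was at -0.80, CENPU at -0.74 and SPDL1, a dynein adaptor, at 0.26. In Combination against ALIS it was 40 (50.6%) and 1 (1.27%), against 19% and 19.4%, with the centromere protein OIP5 at -0.66.

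AURKA, the target of alisertib and no member, was at 317, 277 and 266 CPM in CTL, 174, 172.5 and 178 in TGFB, 328, 324 and 357 in ALIS and 232, 219 and 214 in Combination. It fell with TGFβ (-0.71 ± 0.063) and was called higher with alisertib, without TGFβ (0.23, edgeR adjusted p = 0.0431, called in 9 of 19 alternatives) and with it (0.34, edgeR adjusted p = 0.0121, called in 16). MKI67, a proliferation marker, was called lower with TGFβ (-0.26 ± 0.059), and the cell-cycle inhibitor CDKN1A rose from 61.4 ± 7.02 to 253 ± 17.5 CPM. E2F1, a transcription factor of S-phase entry, was at 66.7 ± 7.01 CPM in CTL, 58.8 ± 3.48 in TGFB, 52.4 ± 5.2 in ALIS and 44.9 ± 2.07 in Combination. It was called lower with alisertib, without TGFβ (-0.35 ± 0.084, called in 14 of 19 alternatives and lost without CTL libraries 2 or 3 or ALIS libraries 8 or 9 and with only CTL and ALIS fitted) and with it (-0.39 ± 0.084, called in 12, with each loss on leaving out 1 library), and not called in TGFB against CTL (-0.18 ± 0.084). Among 36 DNA replication genes, 19 were called lower with TGFβ (52.8%) and 21 with alisertib (58.3%, median -0.31), and none higher in either. Among 12 mitotic kinesins the counts were 7 lower (58.3%) and none higher with TGFβ, and 1 higher (8.33%) and none lower with alisertib. All tested genes were called lower in 20.1% and higher in 18.5% with TGFβ, and in 3.19% and 3.55% with alisertib. The difference between these lists and the 44 genes was not tested.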

How the data were processed

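Counts and RPKM of 12 libraries of MDA-MB-231 cells were taken from 1 table of 57773 genes. Its read counts per gene are whole numbers that the authors deposited without normalisation, and its RPKM values were computed by the authors, per the file headers. The tools TopHat, featureCounts, Subread and bcl2fastq and the build hg19 are named, per the submitters' processing notes. Their versions, their settings and the gene annotation are not given in the sources used here. Per the labels' protocols, RNA was extracted with miRNeasy and the library kit was TruSeq RNA v2, which does not mark strand. Reads from stretches shared by overlapping or near-identical genes therefore cannot be told apart. CKS1B, which has more than 1 row, was left out of the comparison lists.

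Groups were taken from the sample titles. Counts were fitted with edgeR 4.0.16 in R 4.3.3: filterByExpr kept 20571 genes, libraries were scaled by TMM, and all 12 entered 1 robust quasi-likelihood fit of 4 group means with 8 residual degrees of freedom. Calls are at an adjusted p under 0.05 (Benjamini-Hochberg over all tested genes); SE are the log2 fold change over the root of F. Levels are TMM-scaled CPM, and RPKM serve only to compare genes. Total counts of at least 93701658 leave little counting error. No libraries of a group agreed within sampling noise. GC content came from GENCODE v29 transcripts for 19649 tested genes and all 44 members. The fit was tested on simulated data. DESeq2 1.42.0, other scalings and filters, left-out libraries and the 3 settings for the shared deviation were alternatives. The members, lists and alternatives were chosen with earlier results of these data known. Every member is reported; 4 context genes and, of the other mitosis genes at 5 CPM or more, up to 2 called genes with the largest rise and fall in a comparison were named, and genes that overlap a member were named after their values were seen; 1 such gene is not reported here.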

Additional observations from a re-analysis of the deposited data

How the results depend on the processing

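No paired analysis was possible because the replicate numbers run from 1 to 12 and no number is shared between groups. The genes called lower with TGFβ numbered 32 to 35 in TGFB against CTL, 32 to 38 in Combination against CTL and 32 to 36 in Combination against ALIS over all alternatives. Counts under the other settings follow for comparisons in which they moved by over 1.5 times, with the range over left-out libraries last. TGFB against CTL had 2 higher, 1 each with upper-quartile scaling, without a filter and with only the compared groups, and 1 to 2. Combination against CTL had 2 higher and the same 1, 1 and 1, and 1 to 2. ALIS against CTL had 2 lower: 0 with only the compared groups, 9 without libraries 1, 6, 9 and 10, 8 with the shared deviation as covariate, 9 with the GC offset, and 0 to 4. It had 1 higher: 2 by DESeq2, 2 with upper-quartile scaling, 2 without a filter, 0 with only the compared groups, then 14, 14 and 7 in the last 3 settings, and 1 to 10 (10 without CTL library 1). Combination against TGFB had 0 lower: 1 by DESeq2, 1 without a filter, 1 with only the compared groups, then 4, 8 and 6, and 0 to 2. It had 0 higher: 2 by DESeq2, 1 with upper-quartile scaling, 1 without a filter, then 8, 10 and 7, and 0 to 2. Combination against ALIS had 1 higher, then 2, 2 and 3, and 1 to 2. The interaction had 0: 1 lower with the covariate and 1 higher without the 4 libraries, and 0 in every left-out fit; it was not run with only the compared groups. Fits of only the compared groups rest on fewer libraries; the cause of the other moves was not tested.

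PKMYT1 changed direction in Combination against ALIS, from 0.032 without a call to -0.40 with the GC offset (edgeR adjusted p = 0.000174); the cause was not tested. Over all tested genes, calls in ALIS against CTL were 47.4% lower, and 37.2% with upper-quartile scaling (455 lower, 769 higher); in Combination against TGFB 42.8% were lower, and 54.4% with only the compared groups. In Combination against ALIS it was 49.4%, and 59.4% with upper-quartile scaling. Libraries 1, 6, 9 and 10 are 1 of each group, so their deviation adds to the within-group spread, which limits small effects. How far the number of libraries and the depth each set the precision was not tested.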
